A study of Homo sapiens with 12 samples.

Results

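The genes described here are 10 members of the cadherin and catenin adhesion system, CDH1, CDH2, CDH3, CDH4, CDH6, CDH11, CDH13, CDH24, CTNND1 and CTNNA1. They were taken by symbol from a count table of 58381 genes, and all 10 were found under 1 identifier each. The question was whether a lower level of CDH11 in CD44 knockout cells was shared by other cadherins or by the catenins that bind them. RNA was sequenced from 2 human triple negative breast cancer cell lines, Hs578T, from a primary breast carcinoma with a mesenchymal appearance, and MDA-MB-231, from a metastatic pleural effusion, in 12 libraries with 3 in each of 4 groups. Cells of both the CD44 WT and the CD44 KO groups carried a doxycycline-inducible, puromycin-selected Cas9 lentivirus and were starved in low serum before RNA was taken. KO plates were given guides to exons of CD44 and WT plates the transfection reagent without guides. Both were then sorted as live CD29+ cells, WT as CD44+ and KO as CD44- cells, and expanded as populations rather than clones. Each KO group is therefore 1 sorted population of 1 line, and guide effects at other sites cannot be told apart from loss of CD44. The sources do not state that the 3 libraries of each group were grown as separate cultures, so p-values measure the spread between these libraries, which may be technical.

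Classical cadherins are calcium-dependent transmembrane proteins that bind a cadherin on a neighbouring cell. Their cytoplasmic tail binds p120 catenin (CTNND1), which holds the cadherin at the membrane, and beta-catenin (CTNNB1), to which alpha-catenin (CTNNA1) binds as the link to actin. Type I members are E-cadherin (CDH1), typical of epithelium, N-cadherin (CDH2), typical of mesenchymal and neural cells, P-cadherin (CDH3) and R-cadherin (CDH4). CDH6, CDH11 and CDH24 are type II members, and CDH11, also called OB-cadherin, is known from osteoblasts, fibroblasts and mesenchymal tumor cells. T-cadherin (CDH13) is held by a lipid anchor and has no cytoplasmic tail for catenins.

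Levels are given as CPM, the number of fragments of a gene scaled to a common library size, on library sizes scaled by the TMM method, as mean ± SD with n = 3 libraries unless a single library is named. Total counts were 10257586 to 19725543 per library. CD44 itself was at 507 ± 17.6 CPM in Hs578T WT and 27.3 ± 2.06 CPM in Hs578T KO, and at 362 ± 1.70 CPM in MDA-MB-231 WT and 34.2 ± 5.40 CPM in MDA-MB-231 KO with no overlap between WT and KO. Of the 3 receptor genes used to define the triple negative class, PGR was at 0 counts in all 12 libraries and ESR1 at no more than 1.15 CPM in any library, while ERBB2 RNA was present at 57.4 to 101 CPM. VIM, the mesenchymal intermediate filament vimentin, was at 3730 CPM or more in every library.

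Among the members, the cadherins with the highest length-scaled levels were CDH2 and CDH11 in Hs578T WT cells and CDH24 and CDH4 in MDA-MB-231 WT cells, where CDH18, a classical cadherin outside the set, lay in the same range (5.13 ± 0.228 CPM per kb). CDH2 was at 150, 150 and 128 CPM in the 3 Hs578T WT libraries and at 0.0857, 0.487 and 0.624 CPM in the MDA-MB-231 WT libraries, which rest on 14 counts in all. CDH4 showed the opposite pattern, with 0.139, 0.0823 and 0.254 CPM in Hs578T WT and 22.7, 35.2 and 38.6 CPM in MDA-MB-231 WT. CDH13 was at 18.1 ± 1.16 CPM in Hs578T WT and at 0.146 ± 0.187 CPM in MDA-MB-231 WT, where it had 5 counts. None of these 3 genes overlapped between the lines.

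Across the unedited lines, 61.5% of the 15836 genes tested differed at an adjusted p of at most 0.01, 32.2% as higher in Hs578T and 29.4% as lower, so a call here is common. Of the members, 7 passed the expression filter and were tested, and 5 of these 7 were called. CDH2 was higher in Hs578T by 8.46 on the log2 scale (SE 0.211, edgeR quasi-likelihood test, Benjamini-Hochberg adjusted p = 6.834e-14), CDH13 by 6.90 (adjusted p = 4.839e-10) and CDH11 by 3.12 (SE 0.229, adjusted p = 8.363e-09). CDH4 was higher in MDA-MB-231, with a log2 difference of -7.60 (Hs578T minus MDA-MB-231, SE 0.364, edgeR adjusted p = 6.25e-11), and so was CTNNA1, with -0.51 (adjusted p = 1.575e-05). CDH24 had nearly equal levels, 22.1 ± 1.42 and 22.7 ± 5.84 CPM, with a log2 difference of -0.04 (95% interval -0.40 to 0.31). CTNND1 stood at 271 ± 8.22 CPM in Hs578T WT and 210 ± 44.7 CPM in MDA-MB-231 WT, a log2 difference of 0.37 that missed the threshold (edgeR adjusted p = 0.0134). The other 3 members, CDH1, CDH3 and CDH6, were too low to be tested.

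The plot of member levels by library shows this division.

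**Figure D1:**
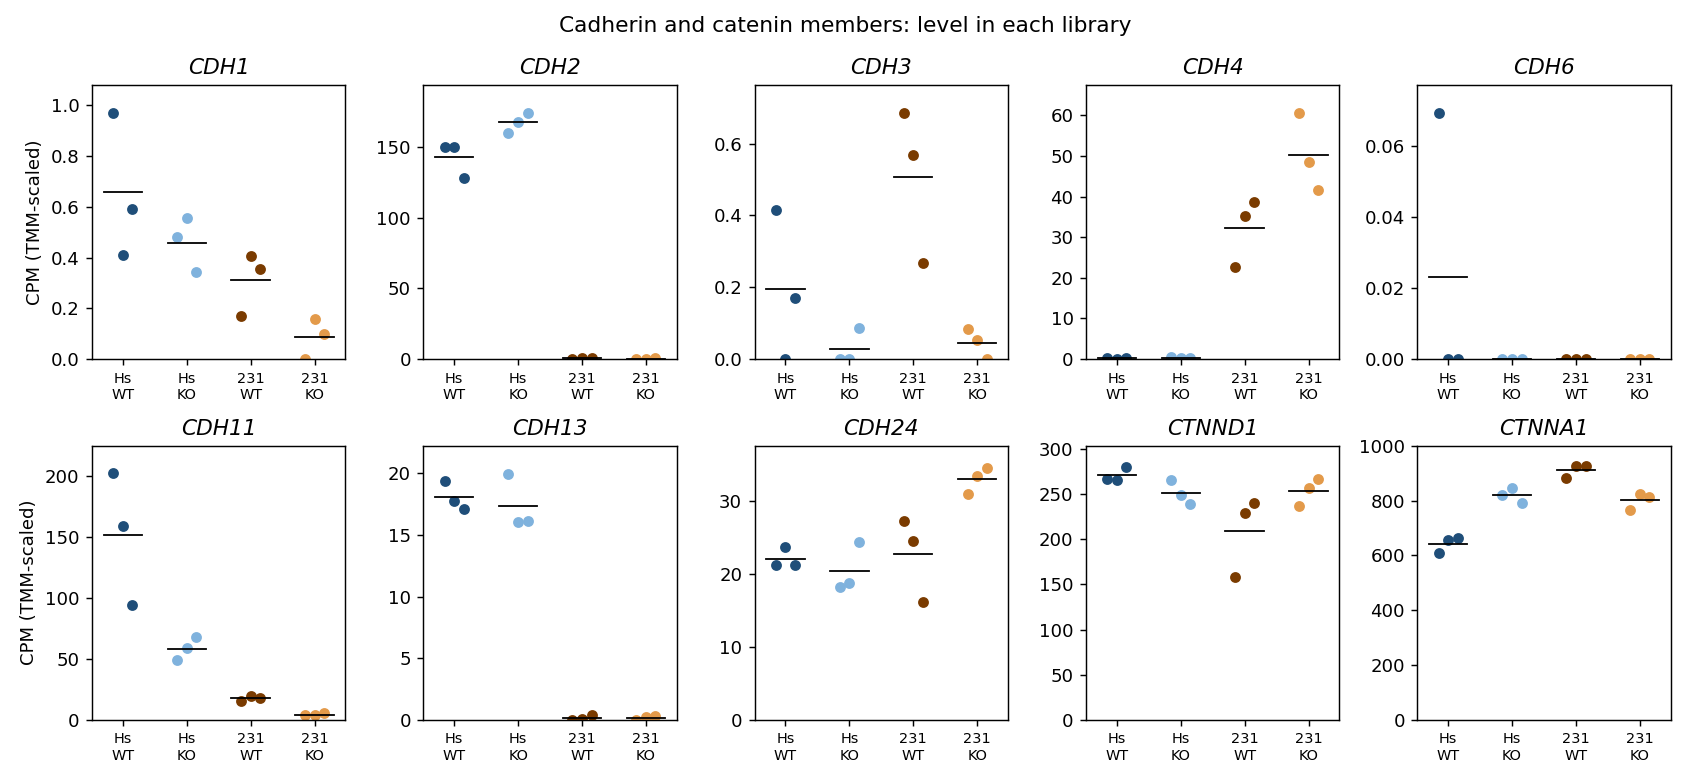
Level of each of the 10 members in CPM (linear axis from 0, TMM-scaled) in every library, with points for single libraries and a bar for the mean of the 3 libraries of a group (Hs, Hs578T; 231, MDA-MB-231). CDH11 lies lower in KO than in WT in both lines, CDH2 and CDH13 are near 0 in MDA-MB-231, CDH4 is near 0 in Hs578T, and CDH1, CDH3 and CDH6 stay below 1 CPM in every library.

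Sequences before the start site are shown for CDH2 and CDH4, the members that divide the lines most sharply and in opposite ways, and for CTNNA1, the one member besides CDH11 called after CD44 loss. RefSeq promoter sequences (GRCh38.p14) were at hand for 3 of the 10 members, and CDH1, CDH3, CDH6, CDH11, CDH13, CDH24 and CTNND1 had no entry. Each run below is the 250 bases before a RefSeq start site, 5′ to 3′ on the strand of the gene. Capitals mark matches on either strand to CAGGTG, an E-box bound by the SNAI and ZEB repressors, or to GGGCGG, a GC box bound by SP1. The windows are chr18:28177131-28177380 on the minus strand for CDH2, chr20:61499171-61499420 on the plus strand for CDH4 and chr5:138753175-138753424 on the plus strand for CTNNA1. All 3 lie inside the span that the count table gives for the gene. The CDH2 window lies near the 5′ end of that span, at 28177446. The spans of CDH4 and CTNNA1 begin at 61252426 and 138610967, so their windows belong to starts further inside the gene. They need not be the promoters in use.
CDH2: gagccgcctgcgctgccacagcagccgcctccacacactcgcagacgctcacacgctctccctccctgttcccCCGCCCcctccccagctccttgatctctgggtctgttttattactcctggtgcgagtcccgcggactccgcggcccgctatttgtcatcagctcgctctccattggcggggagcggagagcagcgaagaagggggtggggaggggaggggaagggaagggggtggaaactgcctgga
CDH4: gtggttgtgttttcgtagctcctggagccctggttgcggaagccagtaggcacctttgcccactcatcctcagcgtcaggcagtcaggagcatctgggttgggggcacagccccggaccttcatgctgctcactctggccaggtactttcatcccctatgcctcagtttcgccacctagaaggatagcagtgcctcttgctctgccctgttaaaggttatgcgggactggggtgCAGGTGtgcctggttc
CTNNA1: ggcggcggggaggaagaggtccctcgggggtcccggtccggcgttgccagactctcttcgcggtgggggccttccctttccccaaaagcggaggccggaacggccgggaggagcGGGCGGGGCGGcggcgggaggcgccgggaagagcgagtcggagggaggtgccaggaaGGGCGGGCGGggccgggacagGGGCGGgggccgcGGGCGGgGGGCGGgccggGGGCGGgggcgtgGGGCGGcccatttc

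The CDH2 window held 1 GC box and no E-box, with 17 CpG dinucleotides and a GC content of 66.0%. The CDH4 window held 1 E-box, starting 16 bases before the start site, no GC box and 6 CpG dinucleotides, with a GC content of 58.4%. The CTNNA1 window held 9 GC boxes, some of which overlap, 33 CpG dinucleotides and a GC content of 80.0%. Over all 35116 windows of the same length, 17.5% held the E-box and 42.6% the GC box, and the median window had 11 CpG dinucleotides and a GC content of 58.0%. CDH2 has 1 other RefSeq start, CDH4 1 and CTNNA1 3. The counts are per gene and do not show which start was used.

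Loss of CD44 went with a lower level of CDH11 in both lines. In Hs578T, CDH11 was at 202, 159 and 94.3 CPM in the WT libraries and at 48.9, 58.6 and 67.4 CPM in the KO libraries. The groups did not overlap, although WT replicate 3 lay well below the other WT libraries. In MDA-MB-231, CDH11 was at 15.1 CPM in WT replicate 1, 19.5 CPM in WT replicate 3 and 17.9 CPM in the WT library that carries no usable replicate number in the labels. The KO libraries of MDA-MB-231 were at 3.81, 3.60 and 5.23 CPM, again with no overlap. CDH11 lies on chromosome 16 of GRCh38, from 64943753 to 65126112 on the minus strand (ENSG00000140937.13).

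The difference in CDH11 exceeded the spread between libraries in both lines. Its change was known when the members were chosen, so the values below describe it and are not independent support. In Hs578T the log2 fold change was -1.38 (SE 0.208, 95% interval -1.82 to -0.94, edgeR quasi-likelihood test, adjusted p = 0.0003445), which is 2.60-fold lower. In MDA-MB-231 it was -2.08 (SE 0.278, 95% interval -2.68 to -1.49, adjusted p = 0.0002198), which is 4.24-fold lower. The change in Hs578T minus that in MDA-MB-231 was 0.70 (95% interval -0.04 to 1.44, adjusted p = 0.2314), so a difference between the lines was not shown. Without Hs578T WT replicate 1, its highest library, the Hs578T value was -1.12, and without WT replicate 3 it was -1.63. Even after the decrease, Hs578T KO cells had more CDH11 (58.3 ± 9.23 CPM) than MDA-MB-231 WT cells (17.5 ± 2.22 CPM).

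No other member was called lower in either line. In Hs578T, 2 of the 7 members tested were called, CDH11 lower and CTNNA1 higher, where 7.51% of all 15836 genes tested were called in either direction 3.64% as higher and 3.86% as lower. In MDA-MB-231, 1 of 7 was called, CDH11, where 4.62% of all genes were called, 1.97% as higher and 2.65% as lower. CDH11 was also the 1 member called in the same direction in both lines, as were 0.423% of all genes tested, 0.272% being lower and 0.152% higher in both. Because its decrease was known beforehand, the calls of CDH11 in these counts are not a finding about the members. At an unadjusted p under 0.05, 2 members in Hs578T and 5 in MDA-MB-231 passed, beside 4339 and 3713 of all genes. The 7 members had a median log2 fold change of -0.06 (Hs578T) and 0.25 (MDA-MB-231), against -0.002 and -0.01 over all genes tested.

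**Figure D2:**
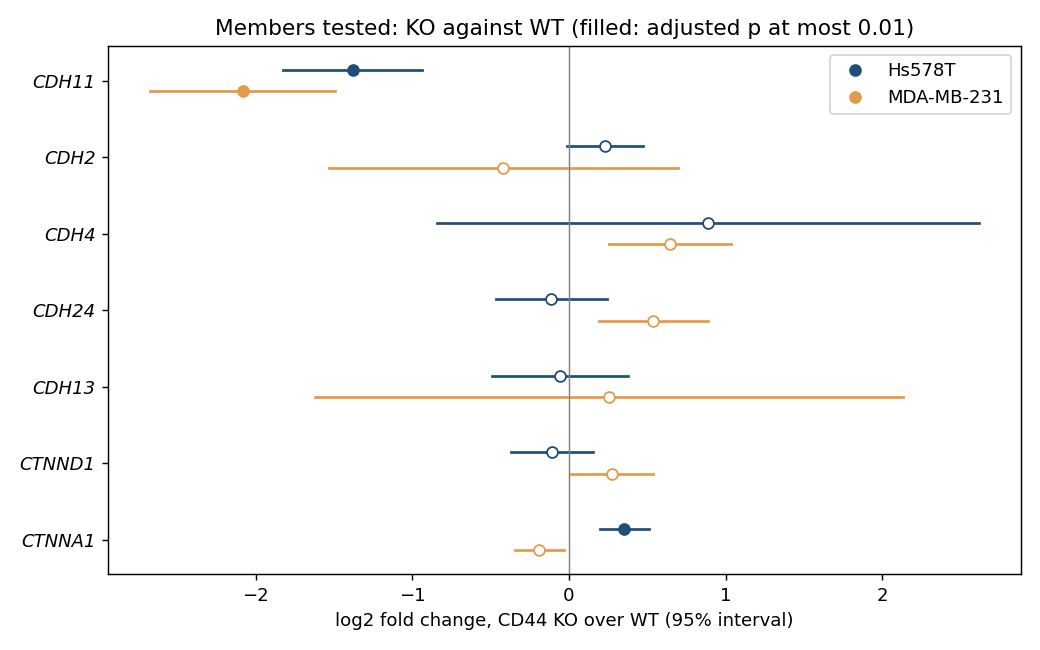
Log2 fold change of CD44 KO over WT with its 95% interval (horizontal axis) for the 7 members tested, in Hs578T (blue) and MDA-MB-231 (orange), filled where the adjusted p was at most 0.01. CDH11 alone lies below 0 with filled points in both lines, at -1.38 and -2.08, and CTNNA1 is the other filled point, at 0.35 in Hs578T.

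The other cadherins of Hs578T were measured at similar or slightly higher levels after CD44 loss. CDH2 was at 160.4, 168 and 174.5 CPM in KO against 150, 150 and 128 CPM in WT, and the groups did not overlap. Its log2 fold change of 0.23 (95% interval -0.01 to 0.47, edgeR adjusted p = 0.2077) did not pass the test, and the interval leaves out a decrease of the size seen for CDH11. CDH24 was at 22.1 ± 1.42 CPM in WT and 20.5 ± 3.43 CPM in KO, with a log2 fold change of -0.11 (95% interval -0.47 to 0.24). CDH13, which cannot bind catenins, was at 18.1 ± 1.16 and 17.4 ± 2.25 CPM, with -0.06 (95% interval -0.49 to 0.38). CDH4 had 6 counts in WT and 12 in KO, too few to place its change (95% interval -0.84 to 2.62).

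In MDA-MB-231, the cadherins present at appreciable levels besides CDH11 had higher means in KO than in WT. CDH4 was at 22.7, 35.2 and 38.6 CPM in WT and at 60.7, 48.5 and 41.7 CPM in KO, with no overlap. The log2 fold change of 0.65 (SE 0.182, 95% interval 0.26 to 1.03) missed the threshold (edgeR adjusted p = 0.03489). CDH24 was at 27.3, 24.6 and 16.1 CPM in WT and at 30.9, 33.5 and 34.6 CPM in KO, also with no overlap, and its log2 fold change was 0.54 (SE 0.164, 95% interval 0.19 to 0.89, adjusted p = 0.05109). Both genes passed when no filter on low counts was applied, with adjusted p = 0.0001491 for CDH4 and 0.00238 for CDH24. Over the alternatives tried, the adjusted p ran up to 0.156 for CDH4 and 0.176 for CDH24. CDH2 and CDH13 had 14 and 5 counts in WT and 12 and 7 in KO, and no change could be detected at this depth.

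The cadherins typical of epithelium were nearly silent in both lines. CDH1 had 26 counts in Hs578T WT, 19 in Hs578T KO, 11 in MDA-MB-231 WT and 4 in MDA-MB-231 KO. The ratio of WT over KO was 1.44 (exact 95% counting interval 0.767 to 2.75) in Hs578T and 3.19 (0.944 to 13.7) in MDA-MB-231. CDH3 had 8 counts in Hs578T WT and 1 in KO, and 18 in MDA-MB-231 WT and 2 in KO. These gave ratios of WT over KO of 8.42 (1.13 to 374) and 10.4 (2.50 to 92.7). The intervals cover counting error only, on pooled libraries, and no library had more than 0.971 CPM of CDH1 or 0.686 CPM of CDH3. When no filter was applied and 29625 genes were tested, CDH3 had an edgeR adjusted p of 0.1978 in Hs578T and 0.01746 in MDA-MB-231, and CDH1 had 0.6652 and 0.3742. CDH6 had 1 count in a single Hs578T WT library and 0 in the other 11, which allows up to 0.0742 CPM in Hs578T KO, 0.0852 CPM in MDA-MB-231 WT and 0.0735 CPM in MDA-MB-231 KO (3 counts over the group).

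The catenins were abundant in every group, and the change of CTNNA1 differed between the lines. CTNNA1 was at 608, 655 and 663 CPM in Hs578T WT and at 820, 847 and 792 CPM in Hs578T KO. In MDA-MB-231 it was at 884, 928 and 928 CPM in WT and at 768, 824 and 812 CPM in KO. The groups overlapped in neither line, with KO above WT in Hs578T and below it in MDA-MB-231. For Hs578T the log2 fold change of 0.35 (SE 0.0736, 95% interval 0.20 to 0.51, edgeR adjusted p = 0.004393) passed, which is 1.28-fold higher. For MDA-MB-231 the value of -0.19 (95% interval -0.34 to -0.03, adjusted p = 0.1292) did not. The difference between the lines was 0.54 (95% interval 0.32 to 0.76, adjusted p = 0.003867), and CTNNA1 was the 1 member of 7 with such a call, beside 4.12% of all genes tested, 2.33% with the higher value in Hs578T and 1.79% with the lower.

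The CTNNA1 calls depended on the number of libraries. The Hs578T call was lost when WT replicate 1 or 2 or any KO replicate of Hs578T was left out, with log2 fold changes of 0.31 to 0.39 and adjusted p up to 0.0325. The call of the difference was lost without any of those 5 libraries, and also without WT replicate 3, KO replicate 1 or KO replicate 2 of MDA-MB-231, with values of 0.50 to 0.56 and adjusted p up to 0.0153. CTNND1, in contrast, was at 271 ± 8.22 and 251 ± 13.5 CPM in Hs578T WT and KO, a log2 fold change of -0.11 (95% interval -0.37 to 0.15). In MDA-MB-231 CTNND1 was at 210 ± 44.7 and 254 ± 15.7 CPM, a log2 fold change of 0.28 (95% interval 0.01 to 0.54, edgeR adjusted p = 0.187), and WT replicate 1, at 158.5 CPM, lay apart from the other 5 libraries, at 230 to 267 CPM. CTNNB1, the beta-catenin that joins cadherin to alpha-catenin and is no member, was at 493 ± 4.50 and 473 ± 8.52 CPM in Hs578T and at 447 ± 42.0 and 526 ± 22.5 CPM in MDA-MB-231, and was not called in either line.

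Dividing CPM by the exonic length of each gene allows levels to be compared between genes. In Hs578T WT the order was CTNNA1 (72.7 ± 3.32 CPM per kb), CTNND1 (30.8 ± 0.934), CDH2 (28.9 ± 2.55), CDH11 (11.3 ± 4.04), CDH24 (5.88 ± 0.379), CDH13 (1.62 ± 0.103) and then the low members, the highest of which was CDH1 (0.107 ± 0.0462 CPM per kb). CTNND1 and CDH2 overlapped, and so did CDH3 and CDH4 near the bottom. In Hs578T KO, CDH11 stood at 4.36 ± 0.690 CPM per kb and overlapped with CDH24 at 5.46 ± 0.914. In MDA-MB-231 WT the order was CTNNA1 (103 ± 2.90 CPM per kb), CTNND1 (23.8 ± 5.08), CDH24 (6.05 ± 1.56), CDH4 (4.38 ± 1.14) and CDH11 (1.31 ± 0.166), and CDH24 and CDH4 overlapped. CDH3, CDH2 and CDH1 followed at 0.0813, 0.0805 and 0.0504 CPM per kb. In MDA-MB-231 KO, CDH11 was at 0.315 ± 0.0664 CPM per kb.

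Summed over 18 classical cadherins of both types, the length-scaled level did not fall in step with CDH11. In Hs578T the sum was 47.9 ± 6.55 CPM per kb in WT and 47.5 ± 2.89 in KO. CDH11 made up 23.2 ± 5.59% of it in WT and 9.14 ± 0.901% in KO, while CDH2 made up 60.6 ± 3.31% and 71.4 ± 1.35%. In MDA-MB-231 the sum was 18.1 ± 0.895 CPM per kb in WT and 22.7 ± 0.981 in KO, and the libraries of both groups did not overlap. There the share of CDH11 was 7.19 ± 0.598% in WT and 1.40 ± 0.352% in KO, that of CDH4 24.0 ± 5.75% and 30.01 ± 4.47%, and that of CDH24 33.4 ± 9.11% and 38.9 ± 3.83%. These sums and shares are descriptions without a test, and they measure RNA and not protein.

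**Figure D3:**
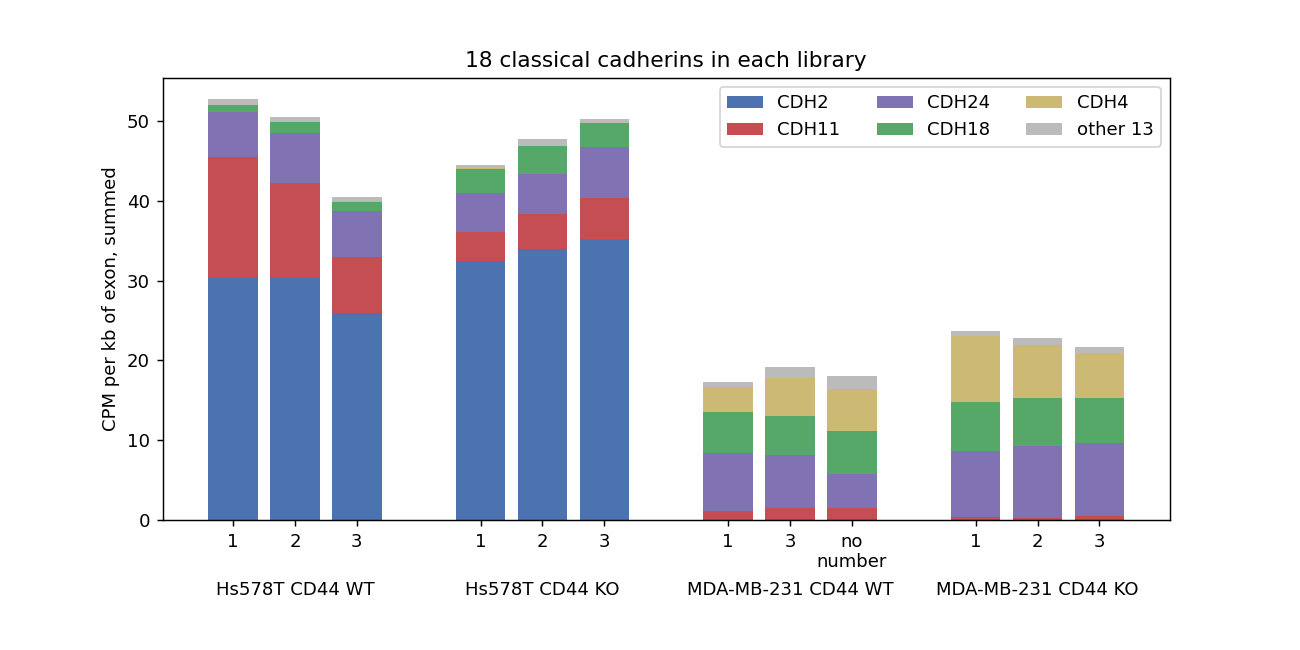
Length-scaled level (CPM per kb of exon, stacked from 0) of 18 classical cadherins in each of the 12 libraries, with CDH2, CDH11, CDH24, CDH18 and CDH4 drawn apart from the other 13; numbers under the bars are replicate numbers. The CDH11 layer is smaller in the KO libraries of both lines, CDH2 is the largest layer in Hs578T, and the bars of MDA-MB-231 consist mainly of CDH24, CDH18 and CDH4.

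Among the 11 classical cadherins outside the set, 6 were tested and 1 was called, CDH18, a type II cadherin known from the nervous system. The call was as higher in Hs578T KO, where 3.64% of all genes tested were called higher. In MDA-MB-231 0 of the 6 were called, where 4.62% of all genes were called. CDH18 was at 5.62 ± 1.04 CPM in Hs578T WT and 15.5 ± 1.46 CPM in KO, a log2 fold change of 1.48 (95% interval 1.17 to 1.78, edgeR adjusted p = 7.157e-06). In MDA-MB-231 it was at 24.9 ± 1.11 and 28.8 ± 1.75 CPM, with 0.21 (95% interval -0.05 to 0.48). CDH10, another type II cadherin, had 58 counts in MDA-MB-231 WT and 18 in KO, with a log2 fold change of -1.90 that did not pass (adjusted p = 0.047), and 0 counts in Hs578T. Of the list, 3 genes were at 0 in all libraries.

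Over the whole cadherin superfamily, 49 of 112 listed genes were tested, and CDH11 was the 1 gene called lower in both lines. Its decrease was known beforehand, and 0.272% of all genes tested were called lower in both. In Hs578T, 2 were lower, CDH11 and DSG2, and 5 higher, where 3.86% of all genes tested were called lower and 3.64% higher. In MDA-MB-231, 3 were lower, CDH11, CLSTN1 and FAT3, and 0 were higher, where 2.65% of all genes were called lower and 1.97% higher. DSG2, a desmosomal cadherin, had 141 counts in Hs578T WT and 10 in KO, with a log2 fold change of -3.83 (95% interval -5.53 to -2.13, edgeR adjusted p = 0.004393), against 202 ± 69.8 and 309 ± 16.7 CPM in MDA-MB-231. All 10 DSG2 counts of Hs578T KO came from replicate 2, and without it the value was -8.52. The call was lost without Hs578T WT replicate 1 or 2 or KO replicate 1 or 3, with adjusted p up to 0.0308, and also under robust estimation (adjusted p = 0.02318). CLSTN1, a calsyntenin, was at 283 ± 12.9 and 200 ± 7.70 CPM in MDA-MB-231 WT and KO (log2 fold change -0.50, 95% interval -0.65 to -0.34, adjusted p = 0.0004479), a call that was lost when each line was fitted alone (-0.48, adjusted p = 0.0122). FAT3, a giant atypical cadherin, was at 13.8 ± 3.26 and 4.51 ± 2.12 CPM there (-1.60, 95% interval -2.24 to -0.97, adjusted p = 0.003754). FAT3 lost its call without MDA-MB-231 WT replicate 3, the unnumbered WT library or KO replicate 2 or 3, with adjusted p up to 0.0272.

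All 4 protocadherins called were higher in Hs578T KO. They were 3 of the 6 unclustered and 1 of the 19 clustered protocadherins tested, where 3.64% of all genes tested were called higher. Protocadherins share the extracellular cadherin repeats but not the catenin-binding tail. Of 12 unclustered protocadherins, 6 were tested and 3 called in Hs578T, and 0 of the 6 in MDA-MB-231 by edgeR, where 2 had an unadjusted p under 0.05, the lowest adjusted p was 0.1027 for PCDH7, and DESeq2 called 0. PCDH18 had 2 counts in WT and 321 in KO (7.83 ± 1.07 CPM), a ratio of KO over WT of 152 (exact 95% counting interval 41.9 to 1265), with an adjusted p of 9.745e-08. PCDH9 had 0 counts in WT and 79 in KO and was at least 25.0-fold higher, against 3 counts over the WT group (edgeR adjusted p = 0.0001124). PCDH10 had 1 count in WT and 45 in KO, a ratio of 42.8 (7.29 to 1726, adjusted p = 0.0005165), and its fitted log2 fold change was 4.99, or 6.85 without Hs578T WT replicate 1. With PCDH9 at its bound, the median log2 fold change of the 6 was 3.38 in Hs578T.

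Of 53 clustered protocadherins 19 were tested, and 1 was called in Hs578T, PCDHGC3. In MDA-MB-231 edgeR and DESeq2 each called 0 of the 19, 9 having an unadjusted p under 0.05. PCDHGC3 was at 31.8 ± 3.63 and 48.0 ± 1.43 CPM, with a log2 fold change of 0.60 (95% interval 0.33 to 0.86, edgeR adjusted p = 0.004367). Genes of this cluster share exons, and fragments that fit several genes were not counted, so the value is uncertain. Its call was lost without WT replicate 1 or 2 or any KO replicate of Hs578T, with adjusted p up to 0.0313.

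Among 13 further catenins and armadillo partners, 10 were tested, with 1 lower in Hs578T and 2 lower in MDA-MB-231. Of all genes tested, 3.86% were called lower in Hs578T and 2.65% in MDA-MB-231. PKP2, plakophilin 2 of the desmosome, had 51 counts in Hs578T WT and 0 in KO and was at least 17.9-fold lower (edgeR adjusted p = 0.001033). PKP3, plakophilin 3, was at 32.5 ± 3.65 and 11.9 ± 1.19 CPM in MDA-MB-231 WT and KO (log2 fold change -1.45, 95% interval -1.68 to -1.22, adjusted p = 7.174e-07). CTNND2, delta-catenin, had 146 counts in MDA-MB-231 WT and 14 in KO (-3.60, 95% interval -4.56 to -2.64, adjusted p = 0.000399) and 0 in Hs578T, and without KO replicate 2 of MDA-MB-231 its value was -4.43. JUP, plakoglobin, which can replace beta-catenin at the cadherin tail, was at 9.63 ± 4.13 and 4.80 ± 1.14 CPM in Hs578T and at 32.2 ± 6.15 and 17.8 ± 9.11 CPM in MDA-MB-231, and passed in neither line (edgeR adjusted p = 0.0912 and 0.1115).

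Of 25 proteins that link the junction to actin or to nectins, 24 were tested. In Hs578T 0 were called by edgeR or DESeq2, where edgeR called 7.51% of all genes tested. There 7 had an unadjusted p under 0.05, and the lowest edgeR adjusted p was 0.0301, for CAMSAP3. In MDA-MB-231 2 were lower, where 2.65% of all genes were called lower. PLEKHA7, which ties p120 catenin to microtubules, was at 29.3 ± 3.88 and 3.90 ± 0.754 CPM in MDA-MB-231 WT and KO, a log2 fold change of -2.91 (95% interval -3.42 to -2.41, adjusted p = 1.515e-06). SHROOM3, which recruits myosin activators to apical junctions, was at 40.1 ± 5.63 and 21.0 ± 0.943 CPM (-0.93, 95% interval -1.17 to -0.69, adjusted p = 9.163e-05). PKP3 and PLEKHA7 lie on the short arm of chromosome 11 between its end and CD44, where other genes were low too in MDA-MB-231 KO. Within 5 Mb, 30 of 68 genes tested around PKP3 were called lower, with a median log2 fold change of -0.74, and 11 of 47 around PLEKHA7, with a median of -0.37, and the part of this region in both values was not tested.

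Around CDH11 itself no such regional shift was measured. Of 89 genes tested within 5 Mb, 2 were called lower and 0 higher in each line, with a median log2 fold change of -0.04 for Hs578T and -0.11 for MDA-MB-231. CDH1 and CDH3, further along the same arm of chromosome 16, had 115 tested neighbours with medians of -0.03 and -0.03. The 109 tested neighbours of CTNNA1 had a median of 0.11 in Hs578T and -0.12 in MDA-MB-231.

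Of 26 listed proteins that cut, dephosphorylate or internalise cadherins, 25 were tested. In Hs578T 1 was called higher and 0 lower, where 7.51% of all genes tested were called. In MDA-MB-231 1 was higher and 2 were lower, where 4.62% of all genes were called. DESeq2 called 1 of the 25 in Hs578T and 6 in MDA-MB-231, and the list medians were 0.02 in both lines. PTPRM, a receptor phosphatase that binds cadherin complexes, was at 13.4 ± 2.39 and 36.7 ± 4.17 CPM in Hs578T WT and KO (log2 fold change 1.46, 95% interval 1.10 to 1.82, edgeR adjusted p = 3.592e-05). In MDA-MB-231 it was at 130 ± 29.0 and 190 ± 13.5 CPM (0.55, adjusted p = 0.02819). AP2M1, an adaptor of clathrin endocytosis, was lower in MDA-MB-231 KO (log2 fold change -0.53, 95% interval -0.71 to -0.36, adjusted p = 0.0007334), as was ADAM17, a membrane sheddase (-0.57, 95% interval -0.82 to -0.32, adjusted p = 0.00547). The AP2M1 call was lost when each line was fitted alone (-0.52, adjusted p = 0.0161), as were those of ADAM17 and PTPRU in MDA-MB-231 (adjusted p = 0.05283 and 0.04943). PTPRU, another receptor phosphatase, was higher there by 0.75 (95% interval 0.42 to 1.07, adjusted p = 0.005961). The median of the genes within 5 Mb was -0.30 around AP2M1 and -0.45 around ADAM17 in MDA-MB-231, and their part in these values was not tested. ADAM10, the main sheddase of classical cadherins, was at 172 ± 8.58 and 187 ± 9.26 CPM in Hs578T and 107 ± 25.2 and 110 ± 4.40 CPM in MDA-MB-231. Leaving out 1 library ended the ADAM17 call in 7 of 12 cases and the PTPRU call in 5 of 12, with adjusted p up to 0.0266 and 0.0323. For ADAM17 these were Hs578T WT replicate 2 and KO replicate 3, MDA-MB-231 WT replicate 3, the unnumbered WT library and all 3 KO replicates, and for PTPRU Hs578T KO replicate 1, MDA-MB-231 WT replicate 3, the unnumbered WT library and KO replicates 2 and 3.

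Of 25 transcription factors and splicing factors known to repress or maintain epithelial cadherins, 18 were tested, and edgeR called no SNAI or ZEB gene. In Hs578T 3 were called higher and 1 lower, where 3.64% and 3.86% of all genes tested were. In MDA-MB-231 2 were higher and 2 lower, where 1.97% and 2.65% of all genes were. DESeq2 called 5 in each line, among them SNAI2 in MDA-MB-231. In Hs578T KO, TWIST1, which drives mesenchymal programs, stood at 25.3 ± 2.39 CPM against 1.47 ± 0.578 CPM in WT (log2 fold change 4.07, 95% interval 3.54 to 4.60, edgeR adjusted p = 1.1e-06), and it had 0 counts in MDA-MB-231. TCF4, an E protein that also acts as a CDH1 repressor, rose from 10.5 ± 3.43 to 102 ± 8.02 CPM in Hs578T (3.30, 95% interval 2.85 to 3.75, adjusted p = 9.745e-08) and was at 1.94 ± 0.647 and 2.87 ± 0.835 CPM in MDA-MB-231. SNAI2, Slug, was at 40.6 ± 6.22 and 57.2 ± 3.38 CPM in Hs578T and 15.8 ± 2.89 and 23.6 ± 3.67 CPM in MDA-MB-231, with adjusted p = 0.02797 and 0.02724. ZEB1, ZEB2 and SNAI1 had adjusted p values of 0.1004 or more in both lines.

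GRHL1, a grainyhead factor of epithelial genes, was the 1 listed factor called in both lines, at 15.9 ± 0.733 and 9.11 ± 0.259 CPM in Hs578T (log2 fold change -0.80, edgeR adjusted p = 0.001265) and 3.96 ± 0.625 and 1.95 ± 0.240 CPM in MDA-MB-231 (-1.003, adjusted p = 0.003051). The 35 genes tested within 5 Mb of GRHL1 had medians of -0.33 and -0.45, and the part of this region in the values was not tested. ESRP2, an epithelial splicing factor, was lower in MDA-MB-231 KO (20.6 ± 3.52 and 8.52 ± 0.641 CPM, -1.28, adjusted p = 0.0003249). GATA3 (1.05, adjusted p = 0.00464) and FOXA1 (0.98, adjusted p = 0.006234), luminal factors, were higher there, and ESRP1 was higher in Hs578T KO (0.97, adjusted p = 0.004915). Leaving out 1 library ended the calls of GATA3, ESRP1 and GRHL1 in MDA-MB-231 in 5 of 12 cases each, of FOXA1 in 6 of 12 and of GRHL1 in Hs578T in 1 of 12, KO replicate 2. The adjusted p then ran up to 0.0215 for GATA3, 0.0418 for ESRP1, 0.0157 and 0.0105 for GRHL1 and 0.0431 for FOXA1. The libraries were MDA-MB-231 KO replicates 1, 2 and 3 for GATA3, FOXA1 and GRHL1, together with WT replicate 3 and the unnumbered WT library for GATA3, WT replicates 1 and 3 and Hs578T KO replicate 1 for FOXA1, and WT replicate 1 and the unnumbered WT library for GRHL1. For ESRP1 they were the 3 WT replicates and KO replicates 2 and 3 of Hs578T.

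Genes listed as partners or targets of beta-catenin and p120 catenin had 4 calls among 18 tested of 20. All 4 were lower in Hs578T KO, where 3.86% of all genes tested were called lower. In MDA-MB-231 edgeR called 0, where 4.62% of all genes were called. There 5 had an unadjusted p under 0.05, the lowest edgeR adjusted p was 0.01598 for LGR5, and DESeq2 called 1. LEF1, a DNA-binding partner of beta-catenin, had 219 counts in Hs578T WT and 1 in KO, a ratio of WT over KO of 230 (exact 95% counting interval 40.9 to 9146, adjusted p = 1.373e-05), and was at 15.3 ± 1.95 and 17.4 ± 4.45 CPM in MDA-MB-231. AXIN2, a feedback inhibitor that beta-catenin induces, was at 6.29 ± 2.31 and 2.45 ± 0.198 CPM in Hs578T (log2 fold change -1.37, 95% interval -1.92 to -0.83, adjusted p = 0.002034). TCF7L1, a repressing partner of beta-catenin, was at 14.8 ± 1.54 and 6.90 ± 0.368 CPM (-1.10, adjusted p = 0.006103). Of 47 genes tested within 5 Mb of TCF7L1, 8 were called lower and 1 higher in Hs578T, with a median of -0.25. The part of this region in the TCF7L1 value was not tested. NKD1, another feedback inhibitor, had 101 counts in WT and 19 in KO (-2.44, adjusted p = 0.007551). The list medians were -0.12 (Hs578T) and 0.01 (MDA-MB-231).

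Of these calls, 3 were lost when single libraries were left out. The TCF7L1 call was lost without any 1 of the 6 Hs578T libraries (adjusted p up to 0.0381), that of AXIN2 without WT replicate 1 or 2 or KO replicate 2 or 3 (up to 0.0163), and that of NKD1 without WT replicate 1 or 2 or KO replicate 1 or 2 of Hs578T or KO replicate 2 of MDA-MB-231 (up to 0.0533). Without Hs578T KO replicate 3 the log2 fold change was -3.17 for NKD1 and -9.20 for LEF1, whose single KO count lay in that library.

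**Figure D4:**
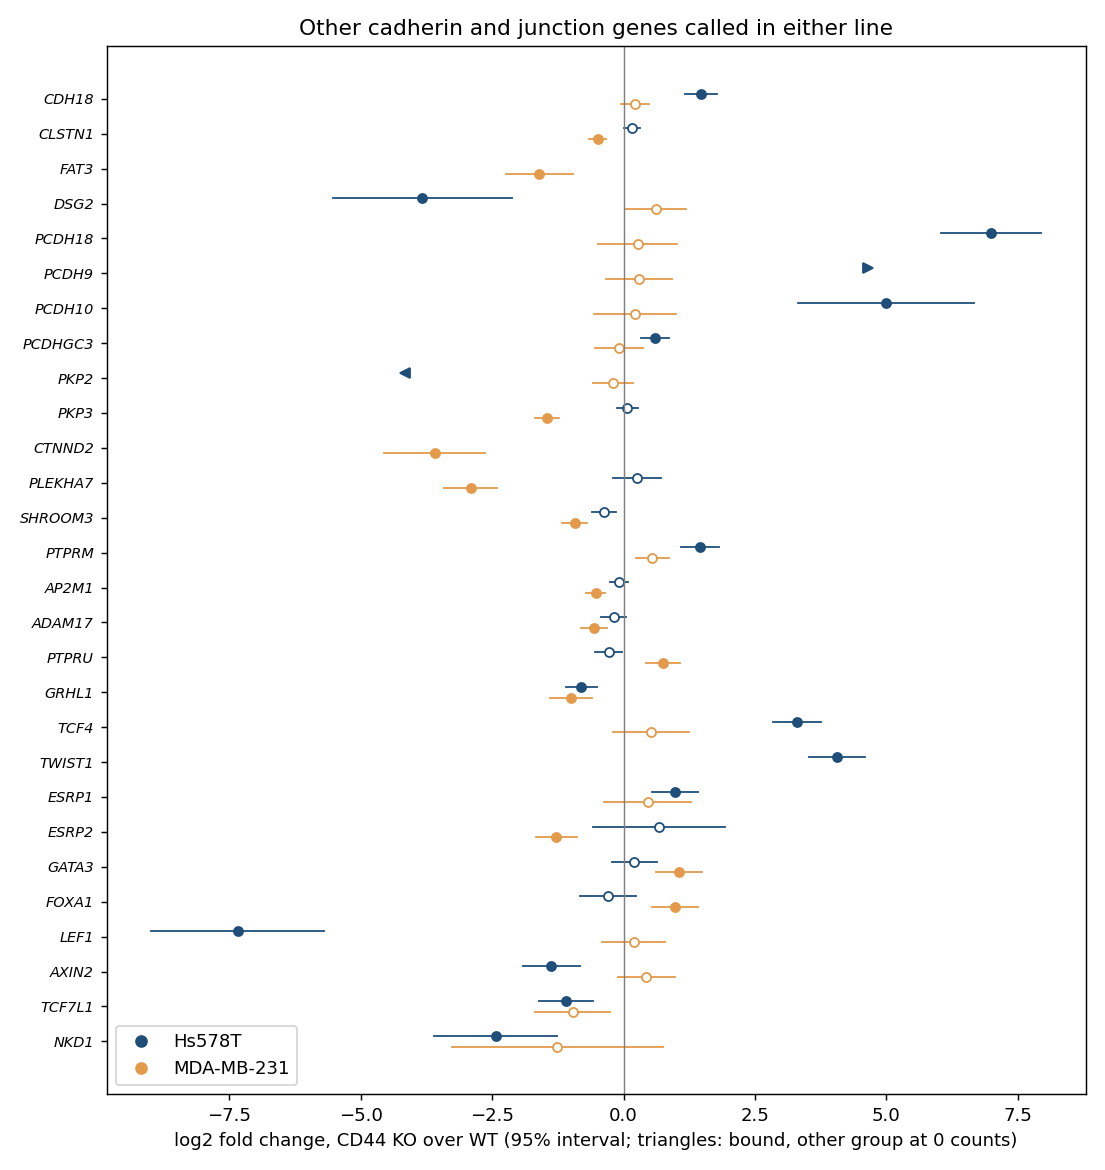
Log2 fold change of CD44 KO over WT (horizontal axis, with 95% interval) in Hs578T (blue) and MDA-MB-231 (orange) for the cadherin and junction genes outside the set that were called in at least 1 line, filled where called; triangles mark a bound where 1 group had 0 counts, and points with at most 3 counts in both groups are left out. GRHL1 is the gene with filled points in both lines, at -0.80 and -1.003, and the 3 unclustered protocadherins lie far to the right in Hs578T and near 0 in MDA-MB-231.

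The genes whose profile was most like that of CDH11 were ranked by the correlation of log2 CPM over 12 libraries, each line centred on its mean, among 9865 genes with at least 5 CPM on average in both lines. Of the 5 highest, 4 are named here. They were CD59, a membrane inhibitor of complement (r = 0.972), ZNF761, a zinc finger gene (r = 0.965), TMEM18 (r = 0.965) and HEXIM1, an inhibitor of transcription elongation (r = 0.959). The libraries share the KO and WT grouping, so the values describe likeness only. CD59 was at 167 ± 9.55 and 140 ± 2.44 CPM in Hs578T WT and KO (log2 fold change -0.26, edgeR adjusted p = 0.04667) and was called lower in MDA-MB-231 KO, at 226 ± 6.22 and 163 ± 13.7 CPM (-0.47, adjusted p = 0.001668). CD59 had the higher level in MDA-MB-231, where CDH11 had the lower. No cadherin or catenin was among the 5.

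Markers of other cells were counted beside these values. The summed level of 5 leukocyte markers was 0.987 to 1.04 CPM in Hs578T WT and 4.01 to 5.30 CPM in Hs578T KO, mostly PTPRC, with 14 and 151 counts, and 0.339 to 1.28 CPM in MDA-MB-231. The 8 stromal fibroblast markers summed to 3028 to 4520 CPM in Hs578T WT and 3846 to 4123 CPM in KO, and to 11.5 to 23.7 CPM over the MDA-MB-231 groups. Of the 7 stromal markers tested, 2 were called higher and 2 lower in Hs578T KO, and DCN and LUM were at 0 in MDA-MB-231. Of the 10 epithelial markers, EPCAM had 2 counts in each Hs578T group and was at 17.6 ± 4.28 and 16.8 ± 3.62 CPM in MDA-MB-231, and the sum was 978 to 1012 and 892 to 947 CPM in Hs578T and 1238 to 1546 and 994 to 1168 CPM in MDA-MB-231. The 5 endothelial markers summed to 14.8 to 17.6 CPM in Hs578T WT and 16.6 to 17.2 in KO, and to 6.17 to 9.71 and 14.1 to 15.6 CPM in MDA-MB-231. Of the 4 tested, 1 was called higher in Hs578T KO, KDR, with 3 counts in WT and 58 in KO. Another, TEK, was called lower there, with 126 and 8 counts. KDR was also called higher in MDA-MB-231 KO, a call lost in 10 of 12 cases when 1 library was left out. VIM was called higher in KO in both lines (0.38 and 0.43, edgeR adjusted p = 0.003864 and 0.002531). Its 42 tested neighbours within 5 Mb were shifted too in MDA-MB-231, where 11 were called higher, 0 lower and the middle value was 0.456. For Hs578T, 3 of these neighbours were higher and 3 lower, and the middle value was 0.08. How far this region enters the VIM values was not tested. Without 1 library the adjusted p of VIM ran up to 0.0224 in Hs578T, for WT or KO replicate 1 or 2, and 0.0224 in MDA-MB-231, for WT replicate 3 or KO replicate 2. The part of a shift in cell types within a line in the CDH11 values was not tested, and in bulk RNA fewer cells with CDH11 and less CDH11 RNA per cell cannot be told apart.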

How the data were processed

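RNA of 12 libraries from sorted CD44 WT and KO cells was sequenced by the authors from stranded, poly(A)-selected, paired-end libraries. Fragments were aligned with HISAT2 (2.1.0) to GRCh38 and counted per gene with featureCounts (1.6.2). The deposited table holds raw counts of 58381 genes, made by the authors without normalization, with each gene's exonic length. Fragments that mapped to several places or genes were not counted, which lowers genes with shared exons. Symbols were attached to 57799 identifiers.

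Genes of at least 300 nt that exceeded 1 CPM in 2 or more libraries were tested. The study's text gives the opposite sense of the length limit, which would leave out every member. TMM scaling and quasi-likelihood tests (glmQLFit and glmQLFTest, legacy setting, 4 group means) were run in edgeR 4.0.16 under R 4.3.3, and calls were made at 0.01 after Benjamini-Hochberg adjustment, whatever the fold. The contrasts were KO minus WT in each line, Hs578T minus MDA-MB-231 for these changes, and WT against WT. Fits were tested on simulated data. All 10 members, CD44, up to 4 called genes per fixed list, line and direction, and the 5 genes most like CDH11 were to be named, of which 1 is not reported here; others named in the text were chosen after their values were seen. Floors are 3 counts over a group, and pooled ratios carry exact 95% counting intervals. Alternatives included DESeq2 1.42.0, scaling by RLE or by library size, other filters, fits, thresholds, the replicate block and leaving out each library. WT and KO libraries of the same replicate number did not deviate together in Hs578T. Pairing by the numbers in the library names was not fitted. Members and lists were chosen with earlier results of these data known. The 1 library without a replicate number entered only by its group. Promoter sequences came from RefSeq (GRCh38.p14), searched with Python 3.11.15.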

Additional observations from a re-analysis of the deposited data

Results flagged for a closer look

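The change with CD44 loss differed between the lines, by the test of the difference itself in edgeR at an adjusted p of at most 0.01, for 18 of the members and of the list genes called in at least 1 line. The targeted gene CD44 differed as well (-0.815), and so did list genes called in neither line, among them PCDHB2 (2.95, adjusted p = 0.009829). Values are the log2 change in Hs578T minus that in MDA-MB-231. Among members this was CTNNA1, at 0.541. Among other cadherins it was CDH18 (1.262), CLSTN1 (0.658), DSG2 (-4.445), PCDH9 (7.343), PCDH10 (4.763) and PCDH18 (6.721), where the values of PCDH9, PCDH10 and PCDH18 rest on 0 to 2 counts in Hs578T WT and depend on the prior count. Among catenin partners and junction genes it was PKP2 (-6.894, with 0 counts in Hs578T KO), PKP3 (1.523), PLEKHA7 (3.162) and PTPRU (-1.03). Among transcription factors and beta-catenin partners it was TCF4 (2.78), AXIN2 (-1.806) and LEF1 (-7.536, with 1 count in Hs578T KO). Among marker genes it was TGFBI (-2.176), CLDN4 (-1.3), KDR (3.042) and PTPRC (5.656, with 2 counts in MDA-MB-231 KO). Leaving out 1 library ended this call in 8 of 12 cases for CTNNA1 and AXIN2, 9 for CLDN4, 10 for KDR, 6 for PCDH10, 5 for PTPRU, 4 for DSG2 and 2 for PKP2, in 11 for PCDHB2, and in 0 of 12 for CDH18, CLSTN1, PCDH9, PCDH18, PKP3, PLEKHA7, TCF4, LEF1, TGFBI and PTPRC. Without Hs578T KO replicate 2 the value was -9.133 for DSG2, without KO replicate 3 it was -9.411 for LEF1, and without WT replicate 1 it was 3.809 for KDR, 6.631 for PCDH10 and -6.153 for PKP2. CDH11 was not among them. Groups of 3 libraries were not searched for single libraries far from the others.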

How the results depend on the processing

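CDH11 kept its direction and its call in both lines under all 22 alternatives, with log2 fold changes of -1.629 to -1.12 in Hs578T and -2.23 to -1.96 in MDA-MB-231 and an edgeR adjusted p of at most 0.003443 and 0.003379. The number of members called changed elsewhere. With no filter on low counts it was 3 in MDA-MB-231 (CDH4, CDH11 and CDH24) and 2 for the difference between the lines (CDH11 and CTNNA1). At an adjusted p of at most 0.05 it was 2 in MDA-MB-231, and with a log2 fold change of at least 1 it was 1 in Hs578T and 0 for the difference. Leaving out 1 library gave 1 to 2 members in Hs578T and 0 to 1 for the difference, each time through CTNNA1. With the replicate block, the difference had 0 members called, with CTNNA1 at 0.551 and an adjusted p of 0.01448. That block also ended the difference calls of AXIN2, CLDN4, KDR, PCDH10, PCDHB2, PTPRC (5.232, adjusted p = 0.01795) and PTPRU, and within a line those of FAT3, ADAM17, PTPRU, GRHL1, FOXA1, GATA3, KDR and VIM in MDA-MB-231 and of ESRP1, NKD1 and VIM in Hs578T. The unnumbered library was left out of that fit. A block that took it as replicate 2 was added after the data were seen and changed no call of a member. Libraries with the same replicate number did not deviate together in Hs578T (correlations of -0.0957 to 0.0222). The values were 0.0079 and 0.1644 in MDA-MB-231, and not every library correlated best with its own number. Library names in the count table carry other numbers. Successive ones join Hs578T WT replicates 1, 2 and 3 with KO replicates 2, 3 and 1, at correlations of 0.0315, 0.1013 and 0.1343. In MDA-MB-231 they keep the same-numbered pairs and join the unnumbered WT library with KO replicate 2, at 0.0992. No block by that order was fitted. Fitting each line alone ended the MDA-MB-231 calls of CLSTN1, FAT3, AP2M1, ADAM17, PTPRU, GRHL1, FOXA1, GATA3, KDR and VIM, with adjusted p from 0.0122 to 0.05283. Among calls of single genes, 233 values over all alternatives lost the call, 8 gained it and 0 changed sign while called. Scaling moved the median of all genes between the unedited lines to 0.16 with library size only, against 0.04 with TMM. Depth limits CDH1, CDH3 and CDH6 in all groups, CDH4 in Hs578T, and CDH2 and CDH13 in MDA-MB-231. The cause of these shifts was not tested.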

Other observations

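CDH5, the cadherin of endothelium, varied among replicates in Hs578T KO, at 0.0802 CPM in the lowest library and 2.47 CPM in the highest, against 0.931 to 1.25 CPM in WT. FAT1, a giant atypical cadherin, was at 376 ± 101 CPM in WT and 446 ± 132 CPM in KO of MDA-MB-231, and its level in Hs578T was 167 ± 5.69 CPM in WT and 256 ± 74.6 CPM in KO. FAT1 was not called in either line (edgeR adjusted p = 0.07749 in Hs578T and 0.5432 in MDA-MB-231). DSC2, the partner of DSG2 in desmosomes, had 2 counts in each Hs578T group and was at 6.88 ± 1.87 and 10.5 ± 1.81 CPM in MDA-MB-231 WT and KO. CD59, whose profile was among the 5 most like CDH11, lies on chromosome 11, as CD44 does. Among 40 tested neighbours of CD44 within 5 Mb, 9 were called lower in MDA-MB-231 KO and 0 higher. Their middle value there was -0.328. For Hs578T, 0 of these neighbours were lower and 0 higher, and the middle value was 0.064. Whether this region enters the CD59 values, and how far, was not tested.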
